A study of Homo sapiens with 2 samples.

Results

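The genes described here encode the subunits of TFIID and Mediator, the 2 large complexes that RNA polymerase II needs to start transcription at promoters. They were chosen by symbol, as TBP and every gene named TAF or MED with a number and at most 1 further letter, and 55 of 61806 genes in the deposited table met this rule. Of these, 25 carried a TAF symbol or TBP and are called the TFIID family, and 30 carried a MED symbol. The RNA was that of SAS, a human cell line established from a squamous carcinoma of the tongue and labelled wild type, harvested 48 hours after lipid transfection. The control library came from cells given a negative control siRNA and the knockdown library from cells given 1 siRNA against COL17A1, the gene of a collagen that anchors basal epithelial cells. There was 1 library per group, so no difference has a replicate check, no p-value is given, and the brackets hold exact 95% intervals for counting error alone. In bulk RNA, fewer cells of a type and less RNA per cell cannot be told apart.

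TFIID binds the core promoter through the TATA-binding protein TBP and a set of TBP-associated factors, the TAFs, several of which pair through histone folds. Mediator bridges transcription factors bound at enhancers and the polymerase at the promoter. It has a head and a middle that contact the polymerase, a tail that contacts activators, the scaffold subunit MED14, and a dissociable kinase module. Not every TAF belongs to TFIID. TAF1A, TAF1B, TAF1C and TAF1D join TBP in SL1, the selectivity factor of RNA polymerase I at ribosomal RNA genes. TAF5L and TAF6L are paralogs used in SAGA, a histone acetyltransferase coactivator, and TAF15 is an RNA-binding protein of the FET family. The cellular component terms in the deposited table followed these lines only in part. The Mediator term stood on 30 of 30 MED genes and the TFIID term on 18 of 25 genes of the TFIID family. The 7 without it were TAF1A, TAF1B, TAF1C, TAF1D, TAF5L, TAF15 and TAF9B, the last a paralog of TAF9, while TAF6L carried it. An SL1 term stood on 2 of the 4 SL1 genes, TAF1B and TAF1D, and a SAGA term on TAF6, TAF6L, TAF9 and TAF12 but not on TAF5L or TAF10. The groups used here follow the known roles, not these terms.

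The control library held 15980152 counts and the knockdown library 21601195. COL17A1 (ENSG00000065618) had 3116 and 411 counts, 10.5-fold lower in the knockdown library. All 7 squamous epithelial markers examined passed the filter given next, while leukocyte markers summed to 3 and 3 counts, endothelial markers to 3 and 0, and fibroblast markers to 23 and 49, with COL1A2, COL3A1, PTPRC, CD3E and PECAM1 at 0 in both. Library scaling used factors from the trimmed mean of M-values method (TMM), and each log2 ratio divides knockdown by control, with 0.5 added to both counts. The 13375 genes whose mean reached 1 CPM, counts scaled to the library size, were tested for size. A gene is called higher or lower where it was at least 1.5-fold apart and its interval excluded 1.

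Transcripts of 53 of the 55 genes passed this filter, 23 of the TFIID family and 30 of Mediator. The 2 others were TAF1L and TAF7L, retrocopy and X-linked paralogs of TAF1 and TAF7 known from male germ cells, with 0 counts in both libraries. At these depths 0 counts leave room for up to 0.188 CPM with the control siRNA and 0.139 CPM with the COL17A1 siRNA. Among all tested genes 12.2% were called higher and 11.7% lower. In the TFIID family 2 of 23 were higher (8.70%) and 4 lower (17.4%), and in Mediator 1 of 30 was higher (3.33%) and 2 lower (6.67%). At a fold of at least 2, with 3.04% of all tested genes higher and 3.6% lower, the TFIID family had 3 lower members (TAF4B, TAF5L and TAF1), Mediator had 1 (MED1), and neither had a higher one. With so few called members these shares are given as a description of the 2 libraries.

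The strongest difference among the members lay in TAF4B, and its paralog TAF4 did not share it. TAF4B (ENSG00000141384, GRCh38 chromosome 18, 26226445 to 26391685, plus strand) encodes a TAF4 paralog that can take the place of TAF4 in TFIID and is known in mice for roles in the ovary and testis. Its counts were 605 with the control siRNA and 176 with the COL17A1 siRNA. As deposited FPKM, a level per exonic length and library total, these were 7.75 and 1.67. It was 4.76-fold lower, a log2 ratio of -2.25 [-2.51 to -2.01], which ranked 23 from the lowest of 13375 tested genes. TAF4 (ENSG00000130699, chromosome 20) had 939 and 1492 counts, 5.72 and 6.72 FPKM, and a log2 ratio of 0.19 [0.08 to 0.31]. Per length, TAF4B lay above TAF4 under the control siRNA and below it under the COL17A1 siRNA, at 57.5% and 19.9% of their summed FPKM. The odds ratio of the 4 counts, which does not depend on how the libraries are scaled, was 0.183 [0.151 to 0.221].

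TAF1 was the other member of TFIID proper that was lower in the knockdown library. It encodes the largest subunit, a scaffold with bromodomains that contacts promoter DNA. TAF1 (ENSG00000147133, chromosome X, 71366222 to 71532374, plus strand) had 664 and 445 counts, 3.70 and 1.83 FPKM, and was 2.07-fold lower at a log2 ratio of -1.05 [-1.23 to -0.88]. TBP itself, with 548 and 816 counts and 14.79 and 16.30 FPKM, was at 0.10 [-0.06 to 0.26], so that no difference was detectable at this depth. TAF7, a partner that binds TAF1, was at -0.07 [-0.15 to 0.01] with 2416 and 3194 counts and the highest level per length in the family, 49.98 and 48.88 FPKM. TAF2, which reads the initiator element at the start site, was at -0.27.

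Both members called higher in the TFIID family carry histone folds. TAF10 (ENSG00000166337, chromosome 11, 6606294 to 6612539, minus strand), shared by TFIID and SAGA, had 170 and 381 counts, 1.83 and 3.03 FPKM, and was 1.61-fold higher at 0.69 [0.43 to 0.96]. TAF11 (ENSG00000064995, chromosome 6, 34877462 to 34889192, minus strand) had 658 and 1378 counts, 5.96 and 9.24 FPKM, and was 1.51-fold higher at 0.59 [0.46 to 0.73]. TAF11 lay close to the 1.5-fold limit and at 0.57, under it, with DESeq2 size factors. TAF13, the histone-fold partner of TAF11, was at -0.19 [-0.29 to -0.08], on 1268 and 1548 counts. TAF8, the partner of TAF10, was at -0.11 [-0.24 to 0.01], and TAF3, another TAF10 partner with a domain that reads methylated histone H3, at -0.24 [-0.49 to 0.02]. TAF10 overlaps ILK, with 79 and 113 counts, over 4581 bases on the opposite strand, and TAF11 overlaps UHRF1BP1 over 53 bases on the opposite strand. The sources used here do not say whether the counting used strand, so reads of such neighbours may be included.

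The other subunits of TFIID lay between -0.31 and 0.17. TAF6, at -0.31 with 647 and 727 counts, and TAF9, at 0.01 with 2985 and 4163 counts, form a histone-fold pair, and the interval of TAF9 spanned 0. TAF9 shares its locus and strand with AK6, so its count is uncertain. TAF12, the histone-fold partner of TAF4, was at 0.17 [-0.10 to 0.45] and TAF5, a WD40-repeat subunit, at 0.15 [-0.01 to 0.32]. Of the 16 tested genes of TFIID proper 2 were higher (12.5%), 2 lower (12.5%) and 12 neither. These shares were near the 12.2% higher and 11.7% lower among all tested genes. The median log2 ratio was -0.03, beside 0.03 for all tested genes.

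**Figure D1:**
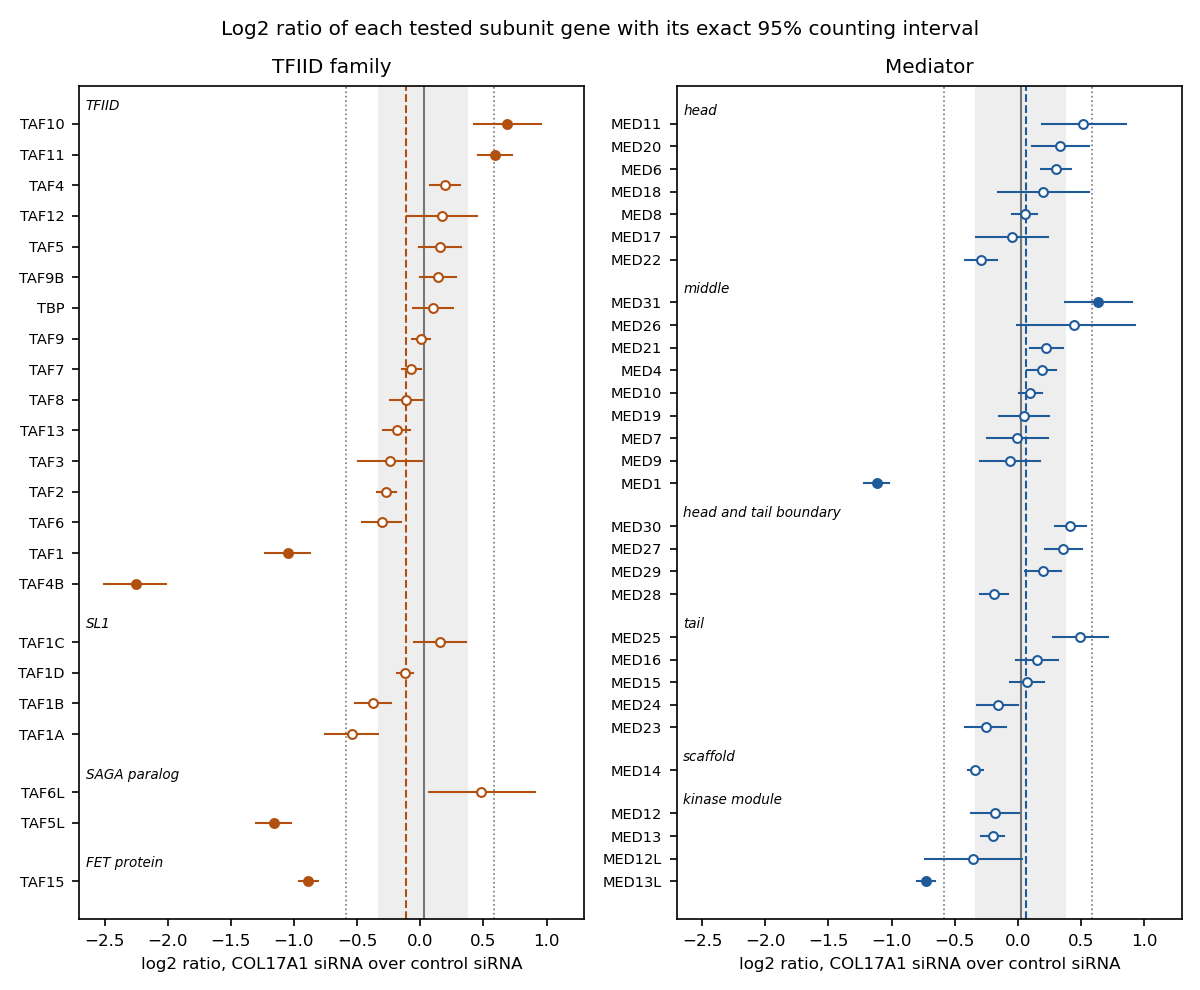
Log2 ratio (horizontal axis, knockdown over control) of each tested gene of the TFIID family (left) and of Mediator (right), ordered within groups, with exact 95% counting intervals as bars and filled points for called genes. The grey band and line give the middle 50% and the median of all tested genes, the dashed line the median of the complex and the dotted lines 1.5-fold. TAF4B at -2.25 stands apart from all other members, and MED1 at -1.12 from the other Mediator genes.

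Of the 7 members of the family that serve other complexes 2 were lower and none higher. Among all tested genes 11.7% were lower and 12.2% higher, and counts this small are a description only. TAF5L (ENSG00000135801, chromosome 1, 229593134 to 229626122, minus strand), the SAGA counterpart of TAF5, had 1137 and 706 counts, 11.01 and 5.06 FPKM, and was 2.24-fold lower at -1.16 [-1.30 to -1.02]. TAF15 (ENSG00000270647, chromosome 17, 35809482 to 35864615, plus strand) had 3438 and 2581 counts, 15.81 and 8.78 FPKM, and was 1.85-fold lower at -0.89 [-0.96 to -0.81]. TAF6L, the SAGA counterpart of TAF6, was at 0.48 [0.07 to 0.91] on only 74 and 144 counts. It overlaps TMEM223, with 91 and 178 counts, over 15714 bases on the opposite strand, so its count is uncertain. Of the 4 SL1 genes none was called, with TAF1A just short of the limit at -0.54 [-0.76 to -0.33], TAF1B at -0.38, TAF1D, which hosts several small nucleolar RNAs, at -0.12 and TAF1C at 0.15.

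The middle 50% of Mediator genes lay between -0.19 and 0.28 on the log2 ratio scale, beside -0.34 to 0.15 in the TFIID family and -0.33 to 0.37 over all tested genes. The member farthest from 0 was MED1 (ENSG00000125686, chromosome 17, 39404285 to 39451272, minus strand), the middle subunit through which nuclear receptors contact Mediator. MED1 had 2152 and 1378 counts, 15.64 and 7.41 FPKM, and was 2.17-fold lower at -1.12 [-1.22 to -1.02]. By FPKM it held rank 6 among the 30 genes under the control siRNA and rank 14 under the COL17A1 siRNA.

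Of the other 8 middle subunits 1 was called, and it was higher, beside 12.2% of all tested genes called higher. MED31 (ENSG00000108590, chromosome 17, 6643311 to 6651634, minus strand), a small conserved subunit, had 172 and 371 counts, 5.11 and 8.15 FPKM, and was 1.55-fold higher at 0.63 [0.37 to 0.90]. It overlaps TXNDC17, with 499 and 881 counts, over 1231 bases on the opposite strand. MED26, a subunit that recruits elongation factors, was at 0.45 [-0.01 to 0.93] on 61 and 116 counts. MED21 and MED7, which form a hinge, were at 0.22 [0.09 to 0.36] and -0.004 [-0.25 to 0.24], MED4 at 0.19, MED10 at 0.10, MED19 at 0.05 and MED9 at -0.06. MED21 overlaps a further annotated locus on its strand, with 201 and 320 counts. MED10 had the highest level of all Mediator genes in both libraries, 59.56 and 65.59 FPKM.

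In the head 0 of 7 genes were called, beside 12.2% of all tested genes higher and 11.7% lower. The median of the head was 0.20. MED11 was at 0.52 [0.19 to 0.86] on 114 and 227 counts, MED20 at 0.33, MED6 at 0.30, MED18 at 0.20, MED8 at 0.05, and MED17, the central head subunit, at -0.05 [-0.33 to 0.24]. MED22 was the lowest at -0.29 [-0.42 to -0.17]. Of the 4 metazoan subunits placed at the boundary of head and tail, MED30, MED27 and MED29 were at 0.41, 0.36 and 0.20 and MED28 at -0.19. MED30 had 814 and 1507 counts and the second level per length in Mediator, 35.37 and 48.45 FPKM. The 5 tail genes had a median of 0.07 and none was called. MED25, a target of viral activators, was at 0.49 [0.28 to 0.72], MED16 at 0.15, MED15, known for its role in sterol-regulated transcription, at 0.07, MED24 at -0.16 and MED23, which transmits growth factor signals through ELK1, at -0.25. MED14, the scaffold, had 4338 and 4773 counts, 28.08 and 22.85 FPKM, and was at -0.34 [-0.40 to -0.28].

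All 4 kinase module genes had negative log2 ratios, with a median of -0.28, and 1 was called lower, beside 11.7% of all tested genes. They are long, with a median exonic length of 15840 bases, and the signs did not hold after the adjustment for exonic length and abundance described with the length comparison. MED12 was then at 0.18, MED13 at 0.10, MED12L at -0.08 and MED13L, no longer called, at -0.09. The median of the 4 was 0.01, beside 0.06 over all tested genes after the same adjustment. With GC content added MED13 was at 0.20, MED12 at 0.02, MED12L at 0.002 and MED13L at -0.17. The median over all tested genes was then 0.05. MED13L (ENSG00000123066, chromosome 12, 115957905 to 116277693, minus strand), which like MED13 links the module to the core, had 3302 and 2767 counts, 6.29 and 3.90 FPKM, and was 1.66-fold lower at -0.73 [-0.80 to -0.66]. MED13 was at -0.20 [-0.29 to -0.11] on 1870 and 2261 counts, 9.23 and 8.26 FPKM. MED12, which activates the kinase, was at -0.18 [-0.37 to 0.01] on 426 and 522 counts, 1.54 and 1.39 FPKM. MED12L, at -0.35 [-0.73 to 0.03] on 113 and 123 counts and 0.49 and 0.40 FPKM, had the lowest level in Mediator. The kinase and cyclin genes of the module, which carry no MED symbol, were CDK8 at 0.29 [0.15 to 0.43], CDK19 at -0.15 [-0.30 to 0.00] and CCNC at -0.10, so none of these 3 was called.

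**Figure D2:**
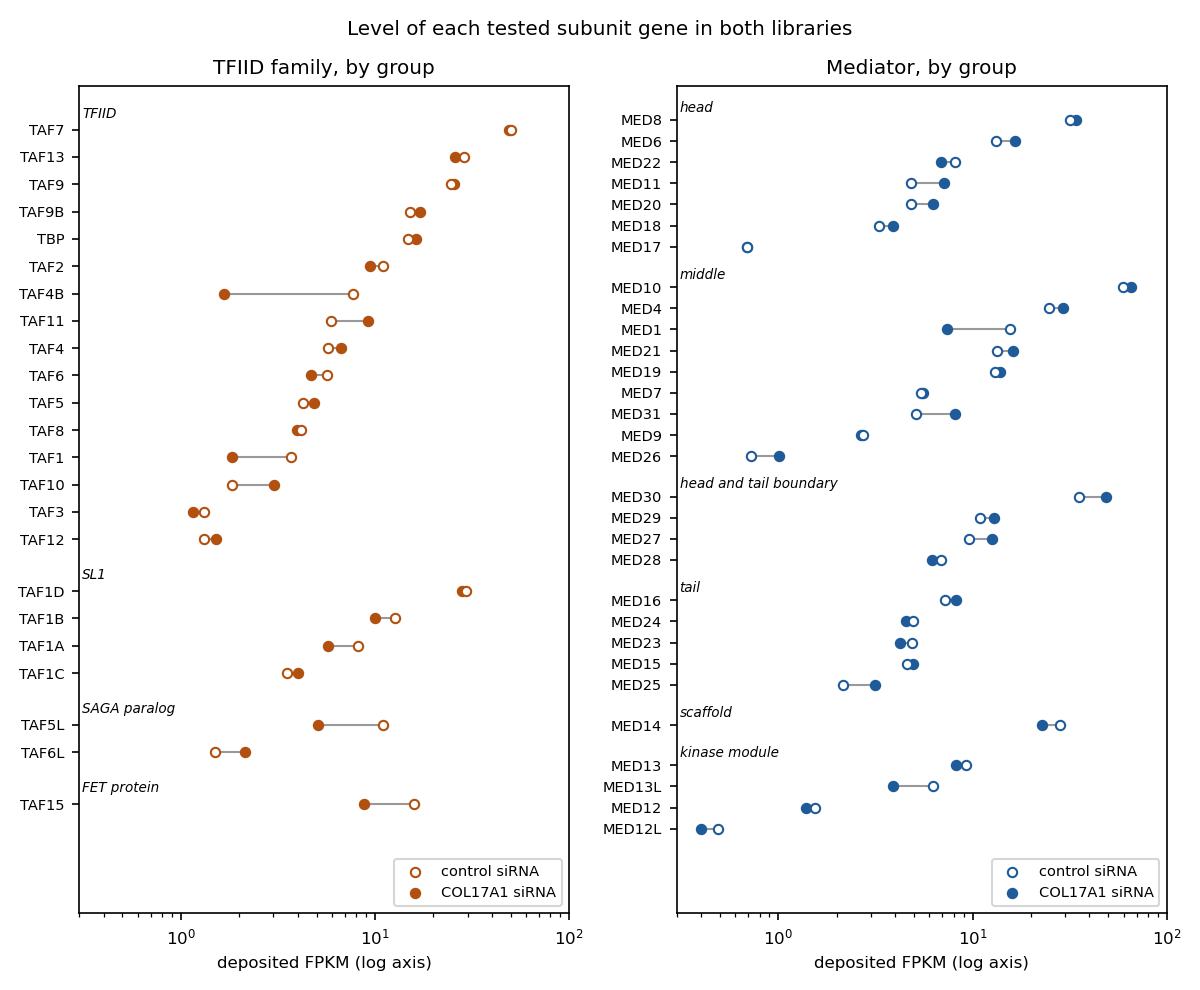
Deposited FPKM (horizontal log axis) of each tested gene under the control siRNA (open points) and the COL17A1 siRNA (filled points), by group and ordered by the control level. TAF7 at 49.98 and MED10 at 59.56 FPKM lead their complexes in the control library. The long bars mark the called genes, TAF4B, TAF1, TAF5L, TAF15, MED1 and MED13L toward lower levels and TAF10, TAF11 and MED31 toward higher ones.

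Set side by side, the median log2 ratio was -0.11 over the 23 genes of the TFIID family and 0.06 over the 30 of Mediator, beside 0.03 over all tested genes, a difference of 0.18 between the complexes. Of the TFIID family 9 lay above the median of all tested genes and 14 below, and of Mediator 17 lay above and 13 below. Summed over members, Mediator had 26667 and 33534 counts and the TFIID family 26121 and 31025. The odds ratio of these sums, Mediator against the TFIID family, was 1.06 [1.04 to 1.08]. The direction turned when the SL1, SAGA and FET genes were left out together. Of these, SL1 summed to 5263 and 6519 counts, the SAGA paralogs to 1211 and 850, and TAF15 had 3438 and 2581. TAF15 and the SAGA paralogs thus had fewer counts in the knockdown library, although it was the larger one, and SL1 had more. No odds ratio was computed with these groups left out one by one. TFIID proper summed to 16209 and 21075 counts, and Mediator against it had an odds ratio of 0.967 [0.942 to 0.993], or 0.977 [0.952 to 1.002] with CDK8, CDK19 and CCNC added to Mediator. The difference of the medians was 0.09 with TFIID proper against Mediator with CDK8, CDK19 and CCNC. It was 0.06 after an adjustment for exonic length and abundance, and 0.01 when GC content was added to that adjustment.

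**Figure D3:**
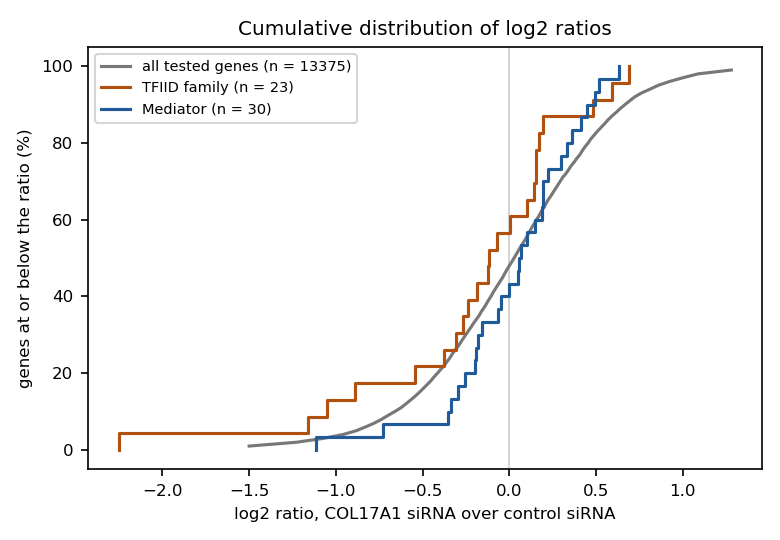
Cumulative share of genes (vertical axis, percent) at or below each log2 ratio (horizontal axis, knockdown over control) for 23 genes of the TFIID family, 30 of Mediator and, between their percentiles 1 and 99, all 13375 tested genes. The curve of the TFIID family reaches farthest to the left, to -2.25, and Mediator is narrower on both sides than all tested genes.

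Longer genes had lower ratios in these libraries, among Mediator genes as over all genes. Across all 13375 tested genes Spearman's rho between the log2 ratio and the deposited exonic length was -0.39, and the median went from 0.42 in the shortest of 10 equal classes of length to -0.27 in the longest. Across the 30 Mediator genes rho was -0.67 and across the 23 genes of the TFIID family -0.14. These are descriptions over genes that share the same 2 libraries, and the part of length in any single value was not tested. The median exonic length was 4775 bases in Mediator and 6904 in the TFIID family. After the adjustment for length and abundance TAF4B was at -2.26, TAF5L at -1.08, MED1 at -0.93, TAF1 at -0.82, TAF10 at 0.72 and TAF11 at 0.69, all at least 1.5-fold apart. MED13L, with 32862 exonic bases the longest member, was then at -0.09, and TAF15 and MED31 lay under 1.5-fold at -0.55 and 0.43, while TAF1A and MED25 passed it at -0.67 and 0.60. With GC content added TAF15 and MED31 were past the limit again, at -0.66 and 0.61, and MED13L, TAF1A and MED25 were under it, at -0.17, -0.51 and 0.42.

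**Figure D4:**
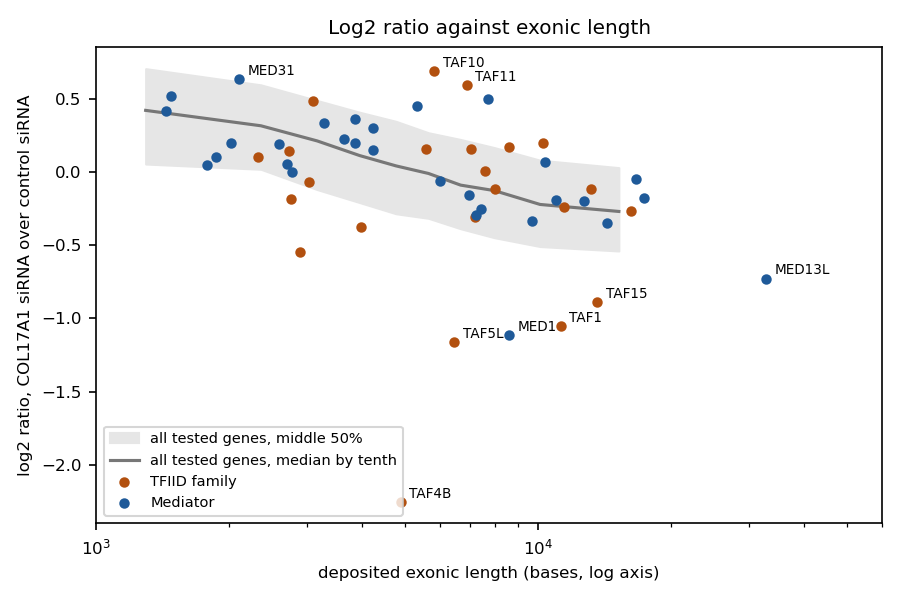
Log2 ratio (vertical axis, knockdown over control) against deposited exonic length in bases (horizontal log axis) for the tested genes of both complexes, with the called genes named. The grey line and band give the median and middle 50% of all tested genes in 10 classes of length, falling from 0.42 to -0.27, and TAF4B, TAF5L, MED1 and TAF1 lie well below the band.

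Among 6 measured pairs of paralogs, of which the TAF5L and TAF6L pairs each join a SAGA gene to a TFIID gene, 4 had intervals of the odds ratio that exclude 1. Counting intervals are narrow at these depths, and those of 65.5% of all tested genes excluded 0 for the log2 ratio of the single gene, so this count sets no pair apart. Beside TAF4B against TAF4, TAF5L against TAF5 had an odds ratio of 0.402 [0.345 to 0.467], with TAF5L at 72.1% and 51.0% of the summed FPKM of the pair. TAF5 itself had 478 and 739 counts, 4.26 and 4.87 FPKM. TAF6L against TAF6 had an odds ratio of 1.73 [1.27 to 2.37], and MED13L against MED13 one of 0.693 [0.640 to 0.751]. The counts of TAF6L and TAF6 may include reads of TMEM223 and AP4M1, which overlap them on the opposite strand. AP4M1 had 145 and 169 counts, and the strand setting of the counting is not known. TAF9B, with 661 and 1013 counts, 15.12 and 17.15 FPKM and a log2 ratio of 0.14 [0.00 to 0.29], had, against TAF9 at 24.69 and 25.47 FPKM, an odds ratio of 1.10 [0.984 to 1.23]. For MED12L against MED12 the odds ratio was 0.888 [0.661 to 1.20], an interval wide enough to hold a difference in either direction. The intervals cover counting error only, so variation between cultures is not in them.

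**Figure D5:**
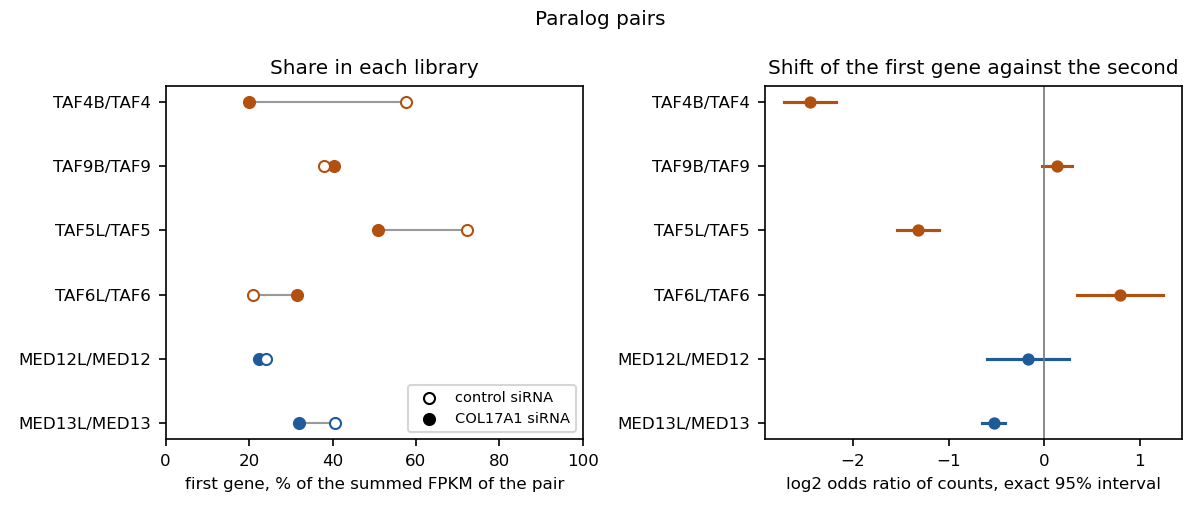
Left, the first gene's percent of the summed FPKM of each paralog pair under the control siRNA (open) and the COL17A1 siRNA (filled). Right, the log2 odds ratio of the 4 counts of each pair with its exact 95% interval. TAF4B went from 57.5% to 19.9% of its pair, while the TAF9B and MED12L pairs have intervals that hold 0.

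A 7-base word that earlier results of these data tied to lower ratios was looked up in the members, read on the transcript strand of the longest annotated 3' UTR of each gene (GENCODE 29, GRCh38). The word GCTAATG stood in 9.18% of 11712 tested genes with such a 3' UTR, whose median log2 ratio was -0.40, beside 0.05 in those without it. Because the word came from these same 2 libraries, these medians give no independent support, and they were not adjusted for 3' UTR length. GCTAATG stood in 3 of 53 tested members (5.66%), and of the 6 lower members TAF5L was the only one with it. TAF4B, TAF1, TAF15, MED1 and MED13L did not hold these letters in that stretch. The sites are printed 5′ to 3′ with the word in capitals, to show where the called and the uncalled members carry it.
TAF5L: tgagagtgaccGCTAATGggtgtggcatt
MED22: gcctttgcgaaGCTAATGacctgcctctg
MED12L: tacttagataaGCTAATGaagttgttttc
The TAF5L site lies at chr1:229599416-229599444 on the minus strand, the MED22 site at chr9:133341661-133341689 on the minus strand and the MED12L site at chr3:151434590-151434618 on the plus strand. Their log2 ratios were -1.16, -0.29 and -0.35, so the word was found with a called and with uncalled values. A second word, TCGGAGA, found in 2.99% of those genes, stood in MED24 and MED28, at -0.16 and -0.19. Over all tested genes with such a 3' UTR, those with TCGGAGA had a median of 0.06, beside 0.01 in those without it. The part of these words in the values of the members was not tested.

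Among the factors that work beside both complexes, the RNA polymerase II subunit genes had the highest median. Of the 4 TBP partners TBPL1, a TBP-related factor, was lower at -1.54 [-1.74 to -1.35], on 685 and 326 counts, and its 3' UTR also holds GCTAATG. So do those of DR1 and the TFIIH gene ERCC3, at -0.26 and -0.15 and not called. Over these groups and the cell type markers the word stood in 3 of 57 tested genes (5.26%), beside 9.18% of all tested genes. BTAF1 and DR1, which remove or block TBP, were at -0.37 and -0.26, and DRAP1, the partner of DR1, at 0.32. Of 16 tested general initiation factors 1 was higher, the TFIIH subunit gene GTF2H5 at 0.60, and 1 lower, the TFIIA gene GTF2A1 at -0.65, around a median of -0.06. Of 14 SAGA partners 1 was higher, SUPT3H at 0.74, and 1 lower, ATXN7 at -0.86, around a median of 0.02. Of 12 RNA polymerase II subunit genes 3 were higher, POLR2F at 0.95, POLR2L at 0.94 and POLR2I at 0.87, and none lower. Among all tested genes 12.2% were higher and 11.7% lower, and the few genes called in these groups are a description only. The median of the 12 polymerase genes was 0.51, with the catalytic subunit genes POLR2A and POLR2B at -0.38 and -0.38. The 12 genes had a median exonic length of 3410 bases and a median GC content of 56.0%, beside 5182 and 47.9% over all tested genes. Over all tested genes Spearman's rho of the log2 ratio was -0.39 with length and 0.37 with GC content. The part of either in the polymerase median was not tested.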

How the data were processed

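Polyadenylated RNA was sequenced from 2 libraries, 1 per siRNA group. The labels name a stranded mRNA kit, or one like it. The authors deposited raw counts per gene, and FPKM beside them, which equalled the count over the deposited exonic length and column total within 0.005. Per the submitters' processing notes, which state no roles, the tools were STAR, HISAT2 and edgeR, with hg38 (GRCh38) as build. Which program counted reads, with what annotation and strand setting, is not given in the sources used here. Coordinates are the deposited ones.

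All genes were scaled together with TMM factors of 0.987 (control) and 1.01 (knockdown) in edgeR 4.0.16 (R 4.3.3). Clopper-Pearson intervals of ratios and conditional intervals of odds ratios are exact and, like the limit of 3 counts for a count of 0, cover counting error only, since PCR reads are not independent molecules. The alternatives tried were size factors of DESeq2 1.42.0, library totals, FPKM with 0.1 added, an offset of 2 counts, minimum CPM of 5 or none, fold limits of 2 and of 1 plus 25%, narrower membership, means, and residuals on log2 length and log2 CPM with their squares, log2 ratios capped at 3 in size. GC content was added to these, and the summed counts of TFIID proper compared, after the data were seen. Every member is accounted for, and called members and paralog pairs are given in full. The members and lists were chosen with earlier results of these data known. 3' UTRs of at least 50 bases came from GENCODE 29, matched by gene identifier. The steps were tested on simulated Poisson counts, which hold counting error alone, without variation between cultures or a trend with length. That test checks the code and does not bear on how the real values would repeat. Scripts ran in Python 3.11.15 (scipy 1.17.1, pandas 2.3.3, numpy 2.4.6) and figures were drawn with matplotlib 3.10.9.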

Additional observations from a re-analysis of the deposited data

How the results depend on the processing

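The called members kept their sign under all scalings, filters and adjustments, and the Mediator median stayed above that of the TFIID family. A filter cannot change the sign of a member, and a scaling cannot change the order of the medians. With DESeq2 size factors 1 member of the TFIID family was higher. After the adjustment for length and abundance the TFIID family median was 0.020 and 1 Mediator gene was lower, and with GC content added these were 0.037 and 1. Over all tested genes the median was 0.060 and 9.41% were lower after the first adjustment. With GC content added these were 0.052 and 8.35%, so the TFIID family median stayed below that of all tested genes. The Mediator median was 0.083 after the first adjustment, above that of all tested genes. With GC content added it was 0.049, so both complexes then lay below the median of all tested genes. At 2-fold 0 genes of the TFIID family and 0 of Mediator were higher and 1 of Mediator lower, and at a fold limit of 1 plus 25% 6 of Mediator were higher and 3 lower, and 3 of the TFIID family higher and 6 lower, beside 24.1% of all tested genes higher and 23.0% lower. With TFIID proper alone 2 genes were lower, and the mean over the TFIID family was -0.21. The odds ratio of the summed counts turned to 0.967 with TFIID proper and to 0.977 with the kinase partners added as well, both chosen after the data were seen. Single members stayed within their counting intervals in 317 of 317 values under the 6 settings of scaling, offset, filter or FPKM. The filters leave each ratio unchanged, so their 52 and 53 values had to lie within. The scalings shift all genes by the same small amount, so their values are not separate checks. Members left their intervals in 21 of 53 values after the adjustment for length and abundance and in 24 of 53 with GC content added. No paired analysis was possible because each group has 1 library. Depth limits MED26, TAF6L and MED12L most.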
